A study of Mus musculus with 5 samples.

Results

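The 10 genes *S100a3*, *S100a4*, *S100a6*, *S100a8*, *S100a9*, *S100a10*, *S100a11*, *S100a13*, *S100a14* and *S100a16* lie on mouse chromosome 3 on both sides of the epidermal differentiation complex (EDC), the run of genes that build the cornified envelope of the skin. They are 10 of the 22380 annotated protein-coding genes. A SOX11 or SOX4 peak was counted for them when its centre lay in the gene or within 10 kb of it, or when the nearest transcription start of any protein-coding gene was theirs. The SOX11 list, of 21270 peaks, held 14 such peaks, and the SOX4 list, of 2669, held 2. By the window of 10 kb alone the counts were 6 and 0.

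The peaks come from ChIP-seq on primary keratinocytes of newborn Krt14-Cre;Sox11fl/fl;Sox4fl/fl mice (dcKO, strain background labelled mixed 129SvEx:C57BL/6, although the study's methods give FVB/N for the Cre line), in which a keratin promoter drives Cre so that both *Sox* genes are deleted in keratinocytes. The cells were grown first on J2 fibroblast feeder cells and then without them, and carried the lentivirus pINDUCER21 with FLAG-tagged *Sox11* or *Sox4*, switched on with doxycycline before fixation. Chromatin was sheared to 100 to 500 bp and precipitated with an antibody to FLAG. There were 2 replicates of SOX11-FLAG, 2 of SOX4-FLAG and 1 control library, titled input but with IgG as its antibody, for which no peak list was used here. The bound protein was therefore an induced, tagged copy in cells that lack the endogenous factors. Each list was made by the authors from both replicates of a factor and gives positions alone, with no height, score or p-value. The lists do not show the depth behind a peak, no spread between replicates can be given, and no test was made. The position of a peak in its list is given below as the order in which the authors deposited it; the sources used here do not say what set that order.

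S100 proteins are small proteins that mostly work as dimers. Most, though not all, bind calcium, which opens a face of the dimer that then grips a partner, such as an annexin, a myosin or a receptor. In skin, several of them are made by keratinocytes, some are crosslinked into the cornified envelope, and others are released as alarm signals when the epidermis is wounded or inflamed. The genes share their cluster with the filaggrin family, whose proteins begin with an S100-like part, and with the loricrin, involucrin, *Sprr* and *Lce* genes of the envelope.

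The sequences of 6 SOX11 peaks are shown because the results turn on them: the 3 at *S100a10* that stand near the start of the list, of which the downstream pair are also SOX4 peaks, the one inside *S100a4*, and those at the starts of *S100a14* and *S100a8*. Capitals mark matches to the SOX, AP-1 or TEAD motif, 10-letter motifs searched on both strands with at most 1 mismatch. The last 2 sequences end at the base before the transcription start, and what lies downstream of it is not shown.
*S100a10* intron peak, chr3:93359863-93360120 (mm9, plus strand): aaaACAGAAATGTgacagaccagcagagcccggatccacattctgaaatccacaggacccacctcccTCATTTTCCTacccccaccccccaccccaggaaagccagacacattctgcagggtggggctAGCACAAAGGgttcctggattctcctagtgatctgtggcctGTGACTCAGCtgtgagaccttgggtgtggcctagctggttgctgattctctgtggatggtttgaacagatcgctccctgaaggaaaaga
*S100a10* downstream peak, nearer, chr3:93383346-93383603 (mm9, plus strand): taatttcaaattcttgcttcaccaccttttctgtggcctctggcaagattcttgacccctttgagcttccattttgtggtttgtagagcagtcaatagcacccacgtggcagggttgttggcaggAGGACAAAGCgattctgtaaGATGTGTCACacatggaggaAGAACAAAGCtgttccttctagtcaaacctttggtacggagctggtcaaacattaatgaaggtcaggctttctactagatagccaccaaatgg
*S100a10* downstream peak, farther, chr3:93384875-93385132 (mm9, plus strand): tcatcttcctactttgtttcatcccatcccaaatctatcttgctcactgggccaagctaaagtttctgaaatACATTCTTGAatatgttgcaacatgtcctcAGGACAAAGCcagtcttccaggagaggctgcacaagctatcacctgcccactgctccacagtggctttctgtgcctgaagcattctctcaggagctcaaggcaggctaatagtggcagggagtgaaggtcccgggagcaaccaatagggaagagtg
*S100a4* intron peak, chr3:90408400-90408657 (mm9, plus strand): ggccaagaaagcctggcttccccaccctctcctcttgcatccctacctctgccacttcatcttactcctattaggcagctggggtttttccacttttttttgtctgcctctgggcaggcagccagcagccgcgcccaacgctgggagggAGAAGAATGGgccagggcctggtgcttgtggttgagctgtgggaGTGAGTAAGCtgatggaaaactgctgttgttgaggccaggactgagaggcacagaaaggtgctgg
*S100a14* start, chr3:90330562-90330777 (mm9, plus strand): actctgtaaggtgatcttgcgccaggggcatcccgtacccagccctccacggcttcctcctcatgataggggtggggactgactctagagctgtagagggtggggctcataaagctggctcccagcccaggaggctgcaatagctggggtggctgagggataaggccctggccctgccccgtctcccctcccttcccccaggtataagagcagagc
*S100a8* start, chr3:90472833-90472992 (mm9, plus strand): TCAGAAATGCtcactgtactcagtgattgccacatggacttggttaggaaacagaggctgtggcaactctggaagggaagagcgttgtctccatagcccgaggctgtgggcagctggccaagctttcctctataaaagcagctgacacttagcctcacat

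By either rule SOX11 peaks were found at 8 of the 10 genes, beside 57.0% of all protein-coding genes, and SOX4 peaks at *S100a10* alone, beside 13%. By the window of 10 kb, 7 of the 10 genes had a SOX11 peak, beside 50.7% of all protein-coding genes and 34.3% of the 8959 protein-coding genes no longer than the longest of the 10, which spans 10147 bp. By the nearest start, 7 of the 10 had a SOX11 peak, beside 46.6% of protein-coding genes. A promoter was taken to begin 1 kb before a start and to end 100 bp past it, and one held a SOX11 peak at 3 of the 10 genes, beside 23.1% of protein-coding genes. No member had a SOX4 peak within 10 kb, beside 10.2% of protein-coding genes and 5.87% of the short ones, and 1 of 10 had one by nearest start, beside 10.1%. No promoter of the 10 held a SOX4 peak, beside 2.81%. The genes sit close together, so that 3 of the 14 SOX11 peaks fell within 10 kb of more than 1 of them, and the counts of neighbouring genes are not independent.

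**Figure D1:**
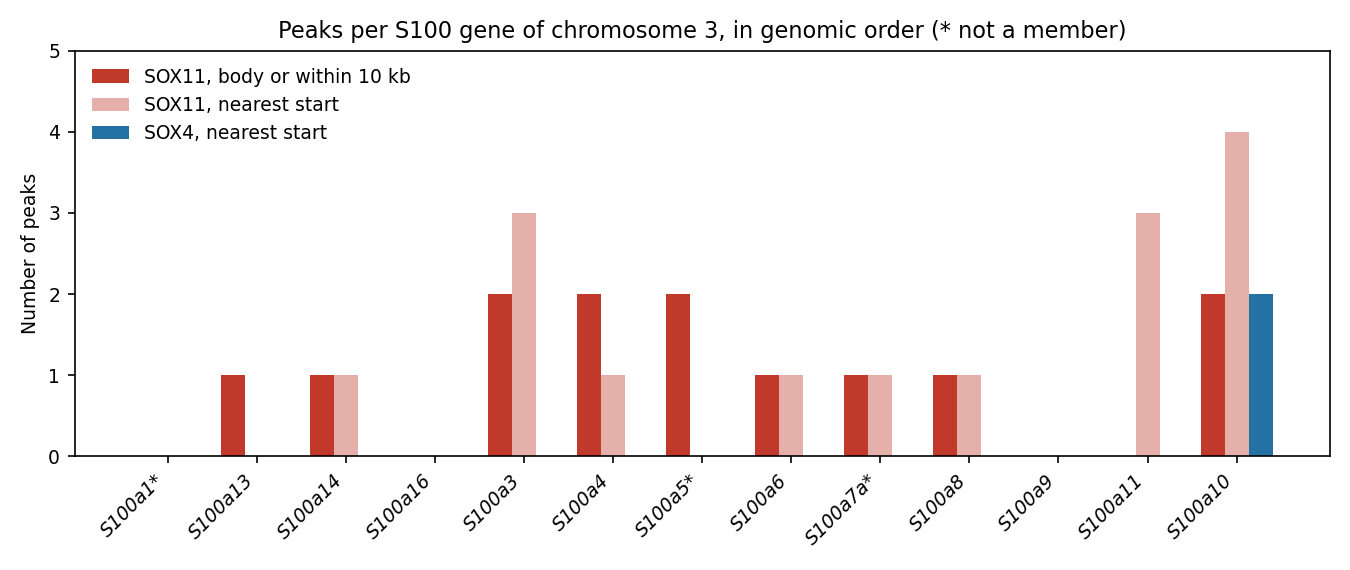
Number of peaks (vertical axis) at each of the 13 S100 genes of chromosome 3 in genomic order (horizontal axis), for SOX11 peaks in the gene or within 10 kb, SOX11 peaks by nearest start and SOX4 peaks by nearest start; an asterisk marks genes outside the 10. *S100a10* had 4 SOX11 peaks and 2 SOX4 peaks by nearest start, and *S100a9* and *S100a16* had none.

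*S100a10* encodes the partner of annexin A2, which it holds at the inner face of the plasma membrane. It had the nearest start to 4 SOX11 peaks and 2 SOX4 peaks, by this rule the most of the 10 genes for either factor. Within 10 kb it had 2 SOX11 peaks, as did *S100a3* and *S100a4*, and no SOX4 peak. At least 4 SOX11 peaks by nearest start were found at 6.13% of protein-coding genes, and at least 2 SOX4 peaks at 1.45%. The peak at number 817 of the SOX11 list lay in an intron of the gene, 989 bp downstream of its outermost start. The peak at number 6884, from 93376069 to 93376326 on chromosome 3, lay downstream of the gene, 17.2 kb from that start. The remaining pair, numbers 706 and 1362, lay 14.9 and 16.4 kb past the end of the gene with their centres 1529 bp apart. Within the 14 SOX11 peaks these were the 2 that overlapped a SOX4 peak.

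The SOX4 peaks at this pair reached from 93383219 to 93383558, number 773 of the SOX4 list, and from 93384819 to 93385158, number 1340. Their centres were 86 and 15 bp from those of the SOX11 peaks. Both lay between genes, with *S100a10* as the nearest annotated start at 18.7 and 20.3 kb, counted from the start of a shorter transcript of the gene. Peaks of the SOX4 list rarely lay this close together: 18 of the 2669, or 0.674%, had the centre of another SOX4 peak within 2 kb, these 2 among them. That count was chosen after the pair had been seen.

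**Figure D2:**
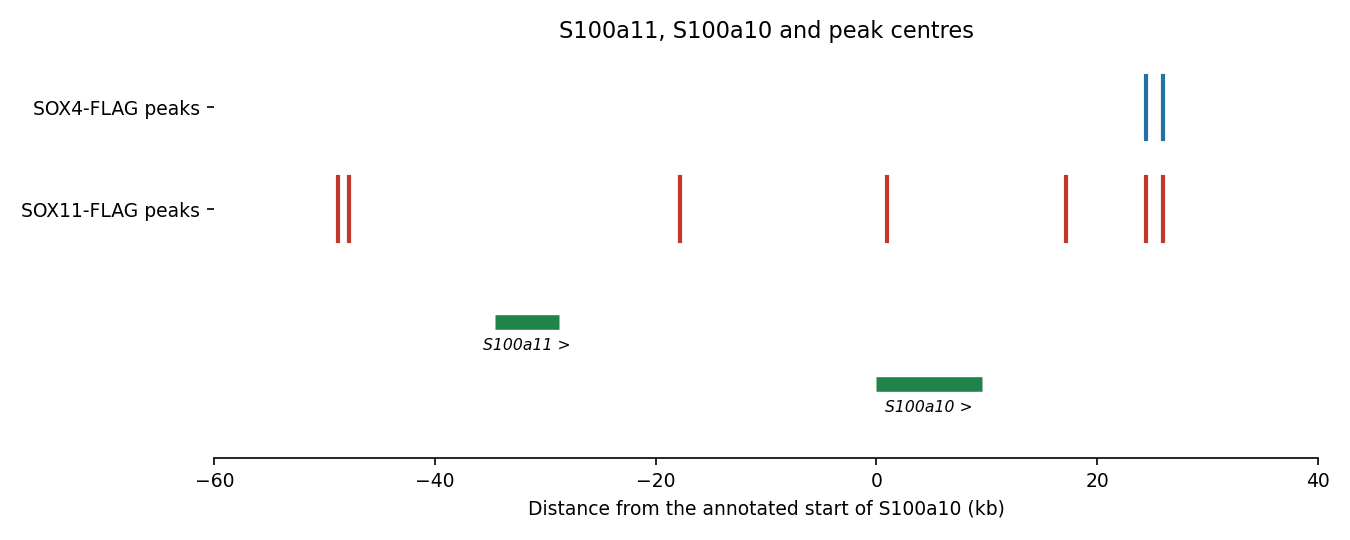
Map of *S100a11* and *S100a10* (green bars, with arrowheads for the direction of transcription) and the centres of SOX11 peaks (red) and SOX4 peaks (blue) by distance in kb from the outermost start of *S100a10*. The SOX4 peaks stand at 24.39 and 25.99 kb, on the far side of *S100a10*.

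*S100a11* encodes a partner of annexin A1 that is also crosslinked into the cornified envelope. It had no peak of either factor within 10 kb, and was reached by nearest start alone. A pair of SOX11 peaks, from 93310058 to 93310315 and from 93311094 to 93311351, lay 14.2 and 13.2 kb upstream of its start with their centres 1036 bp apart, at numbers 8015 and 4643. The third, from 93341060 to 93341317 at number 9027, lay between *S100a11* and *S100a10*, 16.8 kb downstream of the start of *S100a11*. None of these overlapped a SOX4 peak, and the nearest SOX4 peak was 53.2 kb from the gene.

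*S100a4* encodes a protein that binds non-muscle myosin and is known for its link to cell motility. Its SOX11 peak, number 3464 of the list, lay in an intron, 836 bp downstream of the outermost start. It was counted in a promoter only because a non-coding transcript of the gene starts 305 bp downstream of the peak centre. With the starts of protein-coding transcripts alone, a setting chosen after seeing the data, 2 and not 3 of the genes had a SOX11 peak in a promoter, beside 21.8% of protein-coding genes. The same peak was within 10 kb of *S100a3* and *S100a6*. *S100a6*, whose product is calcyclin, a protein of dividing cells, had the nearest start to 1 SOX11 peak, from 90433199 to 90433456 at number 10229, which lay 16.5 kb downstream.

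*S100a3* encodes a protein of the hair cuticle, where it is heavily modified and binds zinc as well as calcium. It had the nearest start to 3 SOX11 peaks. The one from 90405238 to 90405495, at number 5469, lay in an intron of the gene 1229 bp downstream of the start. The others lay upstream in the stretch without protein-coding genes that separates *S100a3* from *S100a16*, at 14.5 kb (from 90389506 to 90389763, number 4830) and at 25.3 kb (from 90378676 to 90378933, number 16906). The nearer of these stood 22.7% and the farther 79.5% of the way down the list, so neighbouring peaks differed widely in position.

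*S100a14* encodes an S100 protein found mainly in epithelia. Its SOX11 peak, from 90330562 to 90330819 at number 6264, spanned the transcription start with its centre 88 bp upstream. This peak was also the one that placed *S100a13*, whose product takes part in the release of growth factors that lack a secretion signal, among the genes with a peak within 10 kb. *S100a13* had the nearest start to no peak. *S100a16*, a broadly expressed member, had no peak of either factor by either rule, and its nearest SOX11 peak was 10.5 kb away, just outside the window.

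*S100a8* and *S100a9* encode the subunits of calprotectin, an antimicrobial protein that withholds metal ions from microbes and is released in wounded and inflamed skin. The SOX11 list had a peak at the start of *S100a8*, from 90472833 to 90473090, with its centre 32 bp upstream. It was number 16186, or 76.1% of the way down the list. *S100a9*, which is transcribed toward *S100a8*, had no peak of either factor by either rule; the nearest SOX11 peak was 23.6 kb from the gene, and the nearest SOX4 peak 216 kb.

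**Figure D3:**
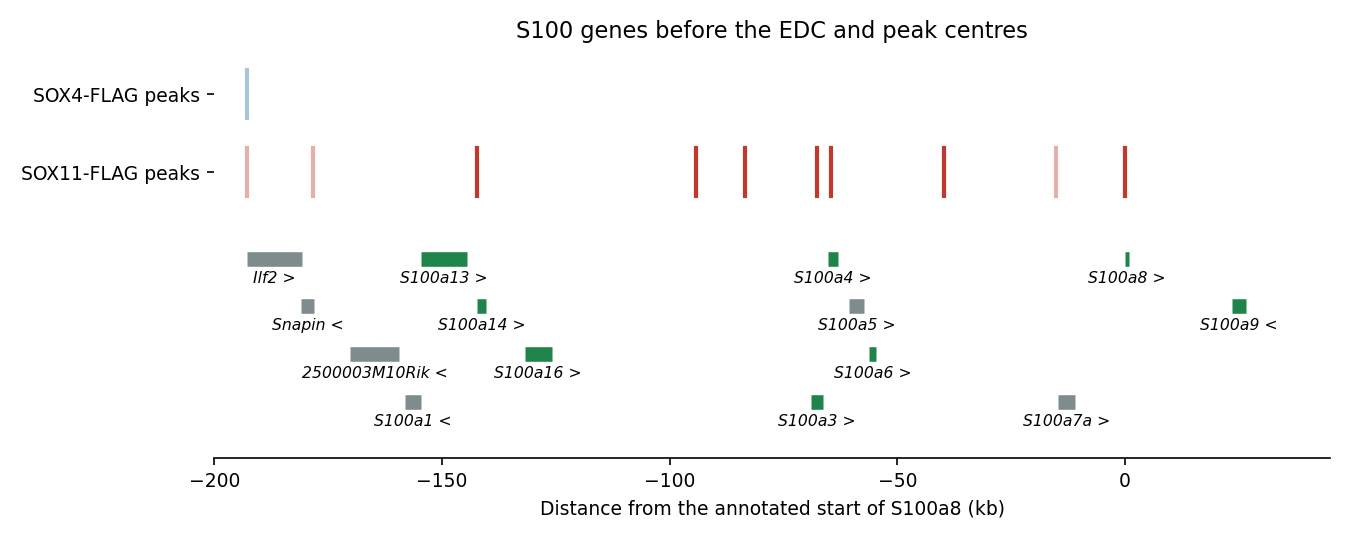
Map of the S100 genes on the proximal side of the EDC (green, members; grey, other genes; arrowheads give the direction of transcription) and the centres of SOX11 peaks (red) and SOX4 peaks (blue) by distance in kb from the start of *S100a8*; paler lines are peaks that were not counted for the 10 genes. The 7 SOX11 peaks counted lie between -142.30 and -0.03 kb, and the SOX4 peak shown, at -192.94 kb, is at the start of *Ilf2*.

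The S100 genes of chromosome 3 form 2 blocks. The first runs from *S100a1* to *S100a9* over 185 kb and ends 1385 kb before the EDC, taken from *Lor* to *Rptn*; the second holds *S100a11* and *S100a10* over 44.2 kb and begins 121 kb after *Rptn* and 48.5 kb after *Tchhl1*, which lies past that end. The first block held 8 SOX11 peaks, or 43.3 per Mb, and the second held 2, or 45.3 per Mb. The EDC between them held 23 over 1319 kb, or 17.4 per Mb, and the autosomes and the X chromosome together had 8.06 per Mb. The value of the second block rests on 2 peaks. The bounds of the blocks are those of closely packed genes. The first block holds 11 protein-coding genes, the second 2 and the EDC 56, where the whole list has 21270 peaks for 22380 genes. The part of gene density in the peaks per Mb was not tested. With 50 kb added at each edge the blocks had 35.1 and 48.6 per Mb and the EDC 16.9. Neither block held a SOX4 peak within its gene bounds, where the EDC held 1. With the added 50 kb, SOX4 peaks numbered 1 in the first block, 2 in the second and 2 in the EDC, or 3.51, 13.9 and 1.41 per Mb, beside 1.01 per Mb over the autosomes and the X chromosome; each of these regional values rests on 1 or 2 peaks. The EDC peaks stood later in the SOX11 list, with a median position of 15982, than those of the first block, with a median of 8246.5.

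The list positions of the 14 SOX11 peaks ran from 706 to 16906 and had a median of 5866.5, where the median of the whole list is 10635.5. All but the farther upstream peak of *S100a3* and the peak of *S100a8*, that is 12 of the 14, came before that median. The 4 peaks of *S100a10* had a median position of 1089.5, and the other 10 had a median of 7139.5, the earliest being that of *S100a4*. Of the 14, 14.3% overlapped a SOX4 peak (95% Wilson interval 4.01 to 39.9%), beside 11.9% of all SOX11 peaks. Both the intervals here and those below cover counting over peaks only. Among the first 2127 peaks of the SOX11 list 62.0% overlapped a SOX4 peak, and among those from number 19144 on 2.02%. The first 2127 included 3 of the 14 peaks, all of *S100a10*, and 2 of these overlapped a SOX4 peak.

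**Figure D4:**
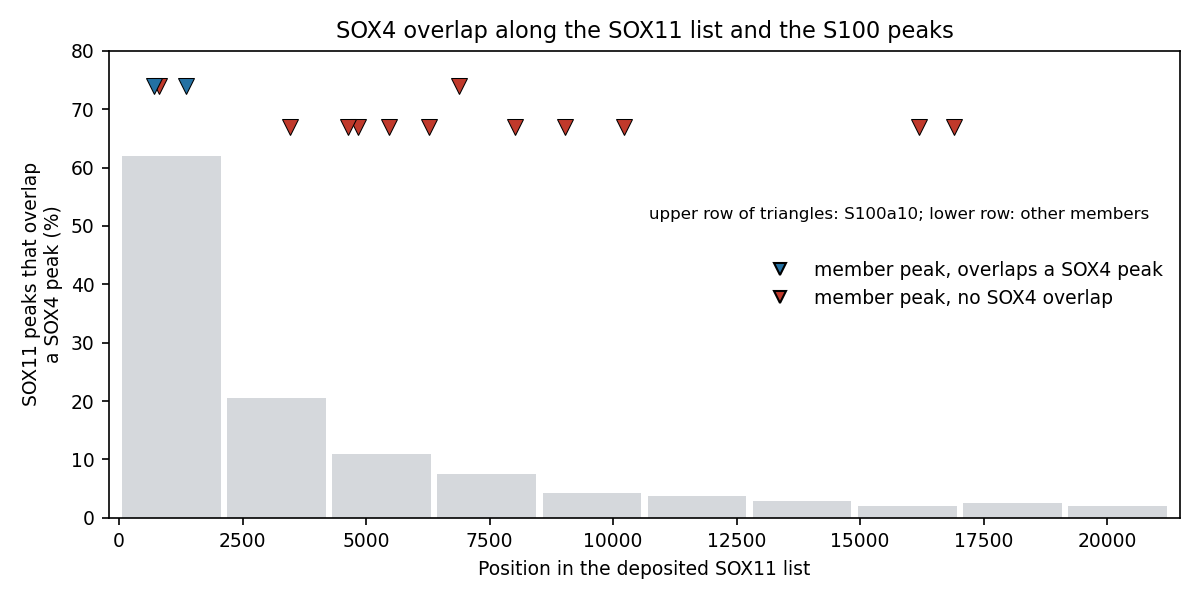
Share of SOX11 peaks that overlap a SOX4 peak (vertical axis, %) in 10 equal stretches of the deposited SOX11 list (grey bars, by list position on the horizontal axis), with the 14 SOX11 peaks of the S100 genes as triangles at their list positions (blue where they overlap a SOX4 peak, red where not). The share falls from 62.0% in the first stretch to 2.02% in the last, and both blue triangles lie in the first.

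By location, 3 of the 14 SOX11 peaks, or 21.4%, lay in a promoter, beside 23.3% of all SOX11 peaks. A further 2 lay in introns outside promoters, those of *S100a3* and *S100a10*, and 9 lay between genes. The GC content of the 14 had a median of 51.4%, from 45.3% for *S100a10* peak number 706 to 62.8% at the start of *S100a14*, and the median over all SOX11 peaks was 51.6%.

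Matches to the SOX motif occurred in 6 of the 14 peaks, or 42.9% (interval 21.4 to 67.4%), beside 47.3% of all SOX11 peaks and 29.9% of sequences of the same width 2 kb downstream of them. These were the peaks in the introns of *S100a3* and *S100a4*, the peak 13.2 kb upstream of *S100a11*, and 3 of the 4 at *S100a10*. Those 3 were among the first 2127 peaks of the list, where 73.6% of SOX11 peaks had a match. The share was 58.3% in the next stretch of equal length and 39.1 to 49.5% in the later ones. The 6 peaks held 8 matches, each with 1 mismatch, and 7 of the 8 lay within 50 bp of the peak centre. In the printed *S100a10* sequences the matches nearest the centre were 5 bp from it in the intron peak, 2 bp in the nearer downstream peak and 21 bp in the farther one. All 3 contain the exact core CTTTGT on the minus strand. The cores CATTGT or CTTTGT, on either strand, were found in 6 of the 14 peaks, beside 58.5% of all SOX11 peaks. These were not the same 6 peaks. The motif matches at *S100a4* and upstream of *S100a11* came without an exact core. *S100a3* peak 16906 and the *S100a8* peak had a core and no motif match.

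The AP-1 motif, the binding sequence of FOS and JUN proteins, was found in 9 of the 14, or 64.3% (interval 38.8 to 83.7%), beside 41.1% of all SOX11 peaks and 19.0% of the sequences 2 kb away. With the exact core TGAGTCA or TGACTCA the count was 4 of 14, or 28.6%, beside 28.5% of all SOX11 peaks, so with the core the share in the 14 peaks was close to that of the list. Matches with no mismatch were found at *S100a10* in the intron peak and in peak number 6884. Of the 11 AP-1 matches 4 were within 50 bp of the centre. The 11 include a near-palindromic site at *S100a6* that counts on both strands and lies farther than 50 bp from the centre. Searched within 50 bp alone, 4 of the 14 peaks had an AP-1 and 6 a SOX match, beside 21.5 and 33.6% of all SOX11 peaks. Both motifs were found in 4 of the 14 peaks, or 28.6%, beside 20.0% of all SOX11 peaks, at *S100a4*, at *S100a11* and in *S100a10* peaks 817 and 706. Of these only peak 817 held an exact core of both motifs, and those at *S100a4* and *S100a11* held a core of neither. Neither motif was found in 3 peaks, or 21.4%, beside 31.6% of all SOX11 peaks: at the start of *S100a14*, in the farther upstream peak of *S100a3* and in the peak between *S100a11* and *S100a10*. That *S100a3* peak did hold an exact SOX core.

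The TEAD motif was found in 5 of the 14 peaks, or 35.7% (interval 16.3 to 61.2%), beside 20.3% of all SOX11 peaks and 14.5% of the sequences 2 kb away. The exact core GGAATG was found in 2 of the 14, or 14.3%, beside 22.8% of all SOX11 peaks, so the order turned with the search. The peak between *S100a11* and *S100a10* held 4 copies of this core and neither of the other motifs. A match gives the letters present and does not show that a factor was bound at them.

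**Figure D5:**
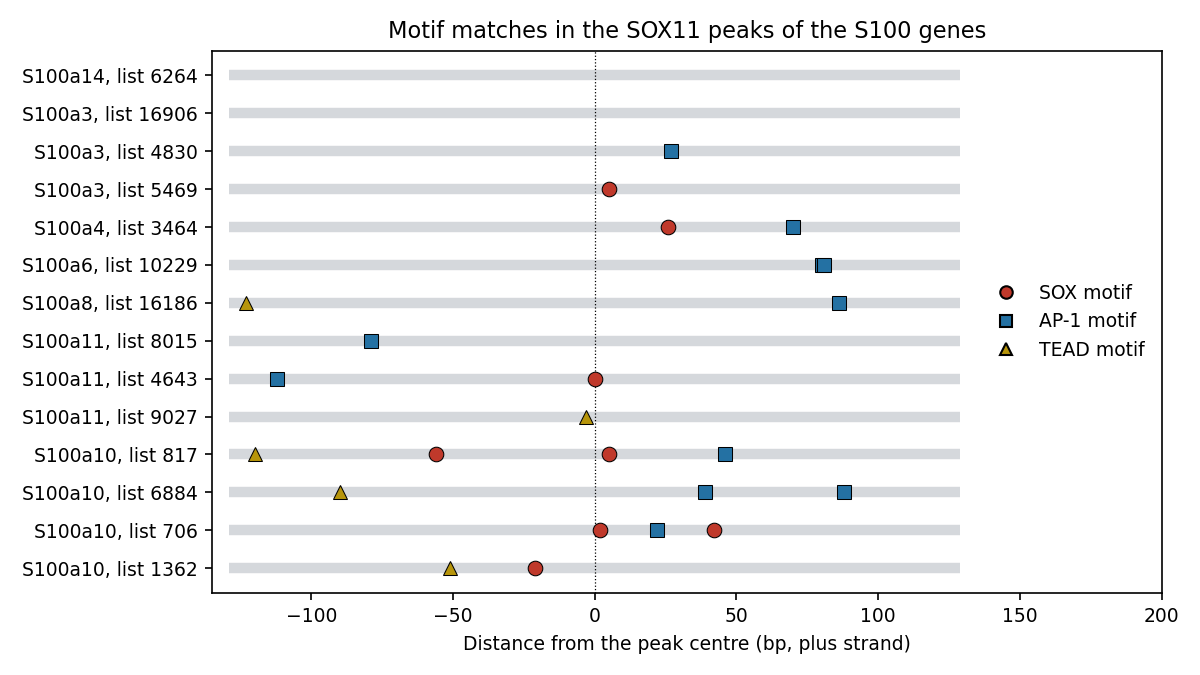
Positions of SOX (circles), AP-1 (squares) and TEAD (triangles) motif matches in each of the 14 SOX11 peaks (grey bars, labelled by nearest gene and list number), by distance in bp from the peak centre. Within 50 bp of the centre lie 7 of the 8 SOX matches and 4 of the 11 AP-1 matches.

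Of the other S100 genes, 6 of 10 listed were found in the annotation by symbol; *S100a2*, *S100a12*, *S100a7l2* and *S100p* were not matched. A SOX11 peak lay within 10 kb of 2 of the 6, beside 34.3% of short protein-coding genes and 50.7% of all. *S100a7a*, the mouse relative of psoriasin, had one in its promoter, from 90457719 to 90457976 at number 18922 of the list. *S100a5* had 2 within 10 kb, both shared with its neighbours. *S100a1*, a protein of heart and muscle, *S100b*, of glia, *S100g*, of intestinal calcium transport, and *S100z* had none within 10 kb, although *S100z* had the nearest start to 1 SOX11 peak. None of the 6 had a SOX4 peak by either rule, beside 13% of protein-coding genes.

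The fused-type genes carry an S100-like part ahead of long repeats. They lie in the EDC or, for *Tchh* and *Tchhl1*, just past the end used for it. None of the 7 (*Flg*, *Flg2*, *Hrnr*, *Rptn*, *Tchh*, *Tchhl1* and *Crnn*) had a SOX11 or SOX4 peak within 10 kb, beside 50.7 and 10.2% of protein-coding genes. For short protein-coding genes the shares were 34.3 and 5.87%, although *Flg2* and *Hrnr* are longer than those. *Flg2*, *Hrnr* and *Rptn* each had the nearest start to 1 SOX11 peak, that is 3 of the 7, beside 46.6% of protein-coding genes. The closest of the 7 genes to a SOX11 peak was *Hrnr*, at 13.6 kb. Of the 38 cornified envelope genes listed, 12 had a SOX11 peak within 10 kb, where the share was 34.3% for short protein-coding genes and 50.7% for all: *Ivl*, *Prr9*, *Lce1a1*, *Lce1b*, *Lce1m*, *Lce3f*, *Sprr1b*, *Sprr2d*, *Sprr2i*, *Sprr2j-ps*, *Sprr2k* and *Sprr3*. *Lce1m* alone of the 38 had a SOX4 peak within 10 kb, beside 5.87% of short protein-coding genes and 10.2% of all. The other 26, with none within 10 kb, were *Lor*, *Lelp1*, *Lce1a2*, *Lce1c*, *Lce1d*, *Lce1e*, *Lce1f*, *Lce1g*, *Lce1h*, *Lce1i*, *Lce1j*, *Lce1l*, *Lce3a*, *Lce3b*, *Lce3c*, *Lce6a*, *Sprr1a*, *Sprr2a1*, *Sprr2a2*, *Sprr2a3*, *Sprr2b*, *Sprr2e*, *Sprr2f*, *Sprr2g*, *Sprr2h* and *Sprr4*.

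The partners of S100 proteins are longer genes elsewhere in the genome, and all 6 listed had a SOX11 peak within 10 kb, beside 50.7% of all protein-coding genes. *Anxa2*, which binds the product of *S100a10*, had 3 SOX11 peaks and no SOX4 peak. *Anxa1*, which binds that of *S100a11*, had 2 SOX11 peaks and 1 SOX4 peak, the latter in its promoter. *Ahnak*, a giant scaffold protein tied to the membrane through *S100a10* and annexin A2, had 7 SOX11 peaks and 3 SOX4 peaks. *Anxa5* and *Anxa6* had 3 SOX11 peaks each and *Anxa11* had 1, with no SOX4 peak. So 2 of the 6 had a SOX4 peak within 10 kb, beside 10.2% of protein-coding genes. A promoter held a SOX4 peak at 1 of the 6, beside 2.81%. Gene length differs between these genes and the S100 genes, with 87660 bp for *Ahnak* against at most 10147 bp, and its part in the counts was not tested.

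Of the 5 receptors of S100 proteins, *Tlr4*, the endotoxin receptor that calprotectin also engages, had 3 SOX11 peaks within 10 kb, one of them in its promoter. *Ager*, the receptor for glycated proteins, had 1 at 2.65 kb whose nearest start was that of another gene. *Bsg*, *Emb* and *Nptn*, related cell surface proteins, had none within 10 kb, and *Emb* had the nearest start to 2 SOX11 peaks. So 2 of the 5 had a SOX11 peak within 10 kb, beside 50.7% of protein-coding genes, and none had a SOX4 peak by either rule, beside 13%.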

How the data were processed

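Per the labels and the methods of the study, the authors aligned reads to mm9 (Bowtie2), took out duplicates (Picard), then called peaks (HOMER, factor style) and removed blacklisted regions (bedtools); versions, thresholds and the control given to HOMER are not given in the sources used here. The deposited values are other than counts or signal: the start and end of each peak, in 1 list per factor made from 2 replicates. SOX11 peaks were 258 bp wide and SOX4 peaks 340 bp, apart from a few narrower ones. Starts were read as 0-based and are printed from 1.

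Peaks were placed by their centre among the GENCODE M1 genes of mm9, with every transcript start of protein-coding genes. An overlap was at least 1 bp. Python 3.11.15, numpy 2.4.6 and matplotlib 3.10.9 were used, and the functions were tested on simulated data. Named genes are the 10 S100 genes and the fixed lists of other S100 genes, fused-type genes, partners, receptors and envelope genes. The members and lists were chosen with earlier results of these data known. In all, 101 alternatives were run, 97 set at the start and 4 chosen after seeing the data.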

Additional observations from a re-analysis of the deposited data

How the results depend on the processing

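No paired analysis was possible because each list pools both replicates of a factor, and for the same reason no replicate was left out. The lists do not show depth, which limits what an absent peak means.

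With the gene body alone, 3 of the 10 genes had a SOX11 peak (28.9% of protein-coding genes); the genomic share was 44.9, 59.3 and 72.0% for windows of 5, 20 and 50 kb, with 6, 9 and 10 of the genes. For SOX4 these windows gave 0, 0, 1 and 2 of the genes, beside 5.71, 8.50, 13.4 and 21.7%. From 1 kb upstream to the gene end 5 of the 10 had a SOX11 peak and 0 a SOX4 peak, beside 38.2 and 7.04% of genes. For the window of 10 kb the shares among short genes were 34.3 and 5.87%. With the SOX11 list taken up to its median position 6 of the 10 had a peak and the share was 30.9%. With only as many SOX11 peaks, from the start of the list, as the SOX4 list holds, 1 of the 10 had a peak by window (9.83% of genes), 1 by nearest start (9.14%) and 0 in a promoter (3.02%), and 3 peaks belonged to the 10; this follows from using fewer peaks. By window alone, 6 SOX11 peaks, 0 SOX4 peaks and 0 overlaps with SOX4 were counted. With the nearest start also within 10 kb, the counts were 6 SOX11 and 0 SOX4 peaks. By that rule 5 of the 10 genes had a SOX11 peak and 0 a SOX4 peak, beside 35.0 and 5.82% of protein-coding genes.

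With no mismatch, 0 of the 14 peaks had the SOX, 2 the AP-1 and 0 the TEAD motif, beside 11.3, 11 and 2.52% of all SOX11 peaks; with the exact core 4 had AP-1 and 2 TEAD, beside 28.5 and 22.8%; within 50 bp of the centre 6 had SOX, 4 AP-1 and 1 TEAD, beside 33.6, 21.5 and 9.40%. In all, 67 of the 101 alternatives stayed within 1.5 times the reported count or within the interval of the reported share, and 34 moved further; the cause was not tested where none is given.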
